A study of Homo sapiens with 6 samples.

Results

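The collagen, laminin and integrin genes of H1299 cells were examined after knockdown of ZBTB11 or SET. Members were taken by gene symbol: COL followed by a number, A and a number, LAMA, LAMB or LAMC with a digit, and ITGA or ITGB with a digit or letter. This gave 82 of the 19934 gene symbols in the count tables, comprising 44 collagens, 12 laminins, 18 integrin alpha chains and 8 integrin beta chains. H1299 is an established human lung cancer cell line, labelled as lung adenocarcinoma and wild type in genotype. The study itself describes H1299 as p53-null, which this label does not show. All 3 groups came from this 1 line, grown in DMEM with serum and transfected 2 times over 4 days. The si-Ctr group received control siRNA, the si-ZBTB11 group siRNA against ZBTB11, a zinc finger transcription factor, and the si-SET group siRNA against SET, a histone-binding oncoprotein. Each group had 2 biological replicates. Which of the study's ZBTB11 oligos the sequenced si-ZBTB11 libraries received is not given in the labels.

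Collagens and laminins are secreted as trimers and form the matrix that cells rest on or migrate through, and the basement membrane under an epithelium is built from networks of collagen IV and of laminin. Integrins are membrane receptors made of 1 alpha and 1 beta chain that bind these ligands outside the cell and link to talin, kindlin and actin inside it. A chain whose partners are missing generally does not form its usual trimer or receptor, so chains that assemble with each other are described side by side.

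The genes of the collagen IV chains lie in head-to-head pairs, which is why the stretch that the promoter windows of each pair share is shown first. A promoter window here holds the 250 bases before and the 50 bases after a RefSeq start site (GRCh38.p14), and each stretch is printed 5′ to 3′ on the plus strand. The windows of COL4A3 and COL4A4 share 82 bases at chr2:227164374-227164455, those of COL4A2 and COL4A1 share 226 bases at chr13:110307108-110307333, and those of COL4A5 and COL4A6 share 121 bases at chrX:108439588-108439708.
COL4A3 and COL4A4: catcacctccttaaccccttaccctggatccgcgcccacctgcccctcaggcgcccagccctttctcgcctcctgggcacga
COL4A2 and COL4A1: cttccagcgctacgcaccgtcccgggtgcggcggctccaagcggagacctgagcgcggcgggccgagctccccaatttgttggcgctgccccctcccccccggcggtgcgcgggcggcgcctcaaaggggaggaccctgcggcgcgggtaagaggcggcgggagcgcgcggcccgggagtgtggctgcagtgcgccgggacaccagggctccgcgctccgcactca
COL4A5 and COL4A6: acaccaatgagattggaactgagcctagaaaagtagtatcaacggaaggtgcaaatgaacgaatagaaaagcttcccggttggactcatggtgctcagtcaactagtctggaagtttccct
The stretches differ in base composition, with 67.1% GC for COL4A3 and COL4A4, 76.5% for COL4A2 and COL4A1 and 44.6% for COL4A5 and COL4A6. The levels of these 3 pairs, given with the network collagens, also lay far apart.

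Because ZBTB11 binds DNA, the windows were also searched on both strands for CCGGAAG and CAGGAAG, forms of the consensus that the study gives for ZBTB11 binding. RefSeq windows were found for 58 of the 82 members, 77 windows in all. CCGGAAG occurred in 3 of them (3.9%), at ITGA6, ITGB5 and LAMA5, against 10.3% of all 35116 RefSeq windows and 12.9% of the windows of counted genes. CAGGAAG occurred in 8 (10.4%), at LAMB2, COL11A2, ITGB1, COL13A1, ITGAM, ITGA2B, LAMA3 and COL6A2, against 12.7% of all windows and 12.6% of those of counted genes. A match describes these letters only and is not a binding site. The windows of LAMA5 and COL6A2 are shown because both genes carried a match and were called lower in both knockdowns. The COL6A2 libraries overlapped si-Ctr upon SET knockdown. Of the others with a match, ITGB1 and ITGA2B were called higher upon SET knockdown and LAMA3 lower upon ZBTB11 knockdown. ITGA6, ITGB5, LAMB2, COL11A2, COL13A1 and ITGAM had no call in either knockdown. The LAMA5 window lies on the minus strand at chr20:62367263-62367562 and that of COL6A2 on the plus strand at chr21:46097862-46098161, each printed in the direction of the gene with the match in capitals, which reads as the reverse complement of the motif.
LAMA5: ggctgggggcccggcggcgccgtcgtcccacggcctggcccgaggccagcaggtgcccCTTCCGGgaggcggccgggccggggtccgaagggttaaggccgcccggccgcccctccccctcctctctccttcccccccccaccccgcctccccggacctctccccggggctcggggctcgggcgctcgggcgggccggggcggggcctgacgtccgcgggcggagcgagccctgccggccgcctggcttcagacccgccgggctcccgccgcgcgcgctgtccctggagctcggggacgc
COL6A2: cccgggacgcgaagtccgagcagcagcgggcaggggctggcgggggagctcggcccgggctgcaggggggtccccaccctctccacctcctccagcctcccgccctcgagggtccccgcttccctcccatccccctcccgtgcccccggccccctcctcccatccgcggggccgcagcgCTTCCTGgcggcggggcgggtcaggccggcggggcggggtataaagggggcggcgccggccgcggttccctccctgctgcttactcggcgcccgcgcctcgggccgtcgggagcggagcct
Windows were not found for members that include COL14A1, COL1A1, COL1A2, COL20A1, COL22A1, COL2A1, COL3A1, COL5A2, COL6A1, COL6A5, COL8A1, COL9A3, ITGA3, ITGA7, ITGA9, ITGAD, ITGAL, ITGAX, ITGB2, ITGB3, ITGB4, LAMA1 and LAMC3.

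The 6 libraries held 16653115 to 17694522 counts, so that raw counts can be read side by side. The targeted genes fell in their own libraries: ZBTB11 had 925 and 1075 counts in si-Ctr and 548 and 544 in si-ZBTB11, and SET had 11656 and 11007 in si-Ctr and 1032 and 1031 in si-SET. ZBTB11 was also lower in the si-SET libraries, with 846 and 708 counts (log2 fold change -0.39 ± 0.08, SE). The epithelial keratins KRT8 and KRT18 had 6083 to 8320 counts in every library, whereas EPCAM and CDH1 had at most 12 counts. Of the 5 markers of lung adenocarcinoma and alveolar epithelium, NKX2-1 and KRT7 were detected at 37 to 117 counts and SFTPC, SFTPB and NAPSA had at most 10. KRT7 fell by 0.53 upon ZBTB11 knockdown (adjusted p = 0.0428) and by 0.54 upon SET knockdown (adjusted p = 0.0367). NKX2-1 had no call, at -0.41 upon ZBTB11 knockdown and 0.04 upon SET knockdown. NAPSA had 6 and 9 counts in si-Ctr, 3 and 5 in si-ZBTB11 and 10 and 9 in si-SET. These 5 markers summed to 10.3 to 10.99 CPM (counts scaled to library size) in si-Ctr, 7.08 to 7.66 in si-ZBTB11 and 7.96 to 9.49 in si-SET. Fibroblast, endothelial and leukocyte markers were low, with at most 48, 56 and 27 counts for any gene of the 6, 4 and 5 listed, and LUM and CD3E at 0 throughout. KRT8 fell by 0.33 and KRT18 by 0.23 on the log2 scale upon ZBTB11 knockdown, and by 0.31 and 0.15 upon SET knockdown. The summed level of the 4 epithelial markers went from 927 to 936 CPM in si-Ctr to 759 to 781 in si-ZBTB11 and 769.9 to 820.1 in si-SET, and the part of either marker list in the results on the members was not tested. In bulk RNA, fewer cells of a type and less RNA per cell cannot be told apart.

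Of the 82 members, 57 passed edgeR's filter on low counts in at least 1 comparison and 53 in all 3. The remaining 25 had at most 13 counts in any library, and 12 members had at most 3 counts in every library. These 25 were COL1A2, COL2A1, COL4A1, COL4A2, COL5A3, COL6A3, COL6A5, COL6A6, COL8A1, COL9A1, COL9A2, COL10A1, COL15A1, COL19A1, COL20A1, COL22A1, COL23A1, COL24A1, COL28A1, LAMA1, LAMB4, ITGA8, ITGAD, ITGAL and ITGB7. At the other end, 16 members had at least 1000 counts in every library. A count of 3, the floor, corresponded to 0.169 to 0.179 CPM, which covers counting error only. Levels of different genes are compared as RPKM, counts scaled to the length of the merged exons in GENCODE version 44 and to library size.

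In si-Ctr, the highest level per length among the 82 genes was that of the laminin receptor chain ITGA3, at 131 ± 7.3 RPKM (SD, n = 2). It was followed by ITGB1, the common beta chain, at 65.4 ± 1.1 RPKM, and by the laminin receptor chain ITGA6 at 50.4 ± 1.7 and the collagen VI chains COL6A2 at 48.2 ± 3.2 and COL6A1 at 37.0 ± 1.4. The values of ITGA6 and COL6A2 lay within 1 SD of each other, as did those of the next 3 genes. LAMB3 and ITGA5 both stood at 33.9, ITGA2 at 33.0, LAMC1 at 27.7 and ITGB5 at 27.4 RPKM. Among laminin alpha chains LAMA5 led at 14.9 ± 1.0 RPKM, above LAMA3 at 2.82, LAMA2 at 2.11 and LAMA4 at 0.629. The 82 genes together took 0.579% and 0.603% of all counts in si-Ctr, 0.509% and 0.521% in si-ZBTB11 and 0.532% and 0.547% in si-SET.

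**Figure D1:**
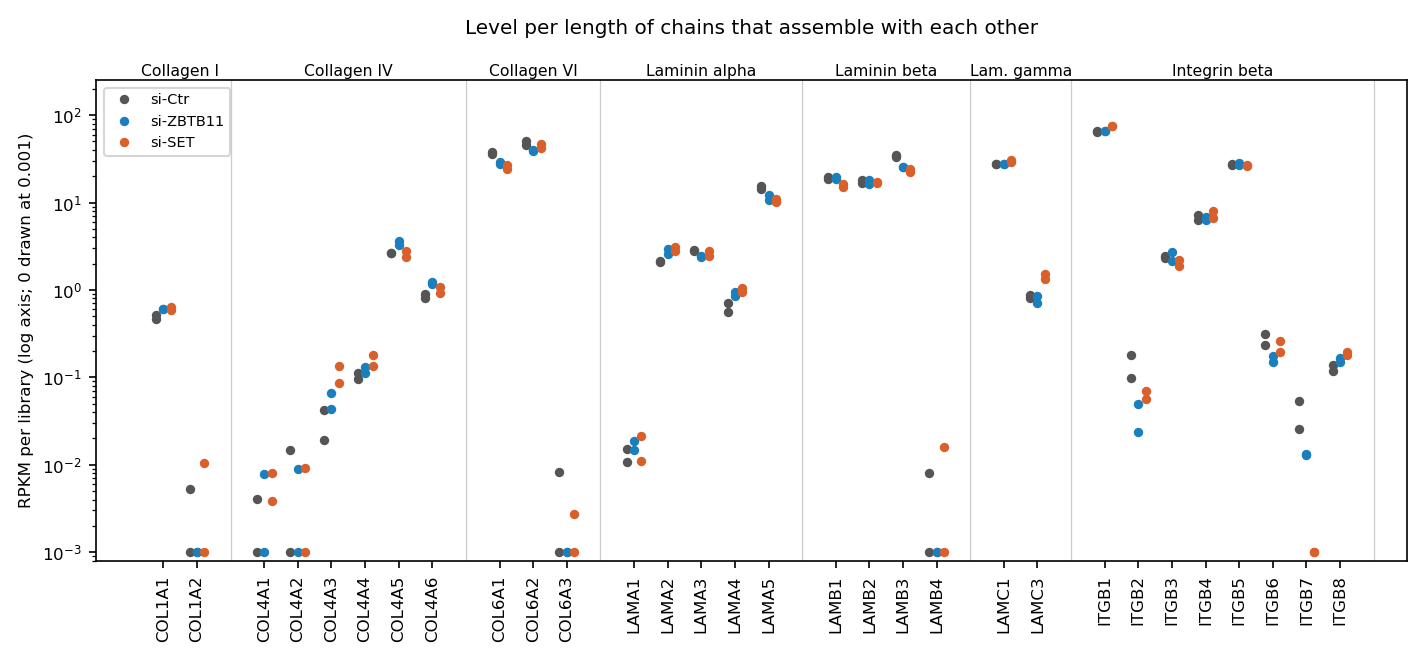
Level per length in each of the 6 libraries for chains of collagens I, IV and VI, laminin chains and integrin beta chains, grouped by type. Chains drawn side by side are not all assembly partners, and no integrin alpha chain is drawn. The y axis is RPKM on a log scale with 0 drawn at 0.001, and each point is 1 library. COL6A1 and COL6A2 lie near 40 RPKM while COL6A3 is at 0 in 4 of the 6 libraries, and COL4A5 and COL4A6 lie above the other collagen IV chains in every library.

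Several chains were present without a usual partner. COL6A1 and COL6A2 had 2349 to 4502 counts per library, but COL6A3, the third chain of the common collagen VI trimer, had 0 and 3 counts in si-Ctr, 0 and 0 in si-ZBTB11 and 0 and 1 in si-SET. COL6A5 and COL6A6, which can take its place, had at most 3 counts. COL1A1 had 73 to 101 counts per library and its partner COL1A2 at most 2. Of the leukocyte integrin chains, ITGAX had 83 to 230 counts and ITGAM 52 to 102, while their beta chain ITGB2 had 3 to 23. These are counts at this depth, which a 0 limits to below the floor given above.

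The question asked of the knockdowns was which of these genes changed when ZBTB11 was depleted and which when SET was depleted. A gene was called at a Benjamini-Hochberg adjusted p-value under 0.05 in edgeR's quasi-likelihood test over all genes tested. Upon ZBTB11 knockdown, 5 of the 56 members tested were higher and 18 were lower, where 9.94% of all 13534 genes tested were called higher and 10.5% lower. The members lower made up 32.1% of those tested, and the median log2 fold change of all 56 was -0.16 against 0.00 over all genes. This median was -0.04 without si-Ctr replicate 2 and -0.09 without si-ZBTB11 replicate 2. Among the members lower, COL8A2 and ITGB2 passed the count filter only through si-Ctr, where they were high. With 10 or more counts required in every library, 5 of 50 members were higher and 17 lower, beside 10.2% and 11.4% of all genes. Upon SET knockdown, 10 of 57 were higher and 18 lower, where 13.1% of all 13599 genes were called higher and 13.9% lower. Here 31.6% of the members tested were lower, and the median was -0.12 against 0.00, or -0.06 without si-Ctr replicate 2 and -0.05 without si-SET replicate 1. COL3A1 among those lower passed the filter only through si-Ctr, and COL25A1 and COL4A3 among those higher only through si-SET. Under the stricter filter, 8 of 49 members were higher and 17 lower, beside 13.4% and 14.6% of all genes. By the study's criteria (absolute log2 fold change above 1, unadjusted p below 0.05), 3 members passed upon ZBTB11 knockdown and 8 upon SET knockdown, where 1.57% and 2.15% of all genes did. Nothing is read from these counts, because COL8A2 and ITGB2 of the 3, and COL25A1, COL4A3, COL3A1 and ITGB2 of the 8, passed the count filter only through the group in which they were high. Both knockdowns were set against the same si-Ctr libraries, so their values are given side by side and not as separate evidence, and with 2 libraries a group the p-values measure only the spread between these libraries.

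**Figure D2:**
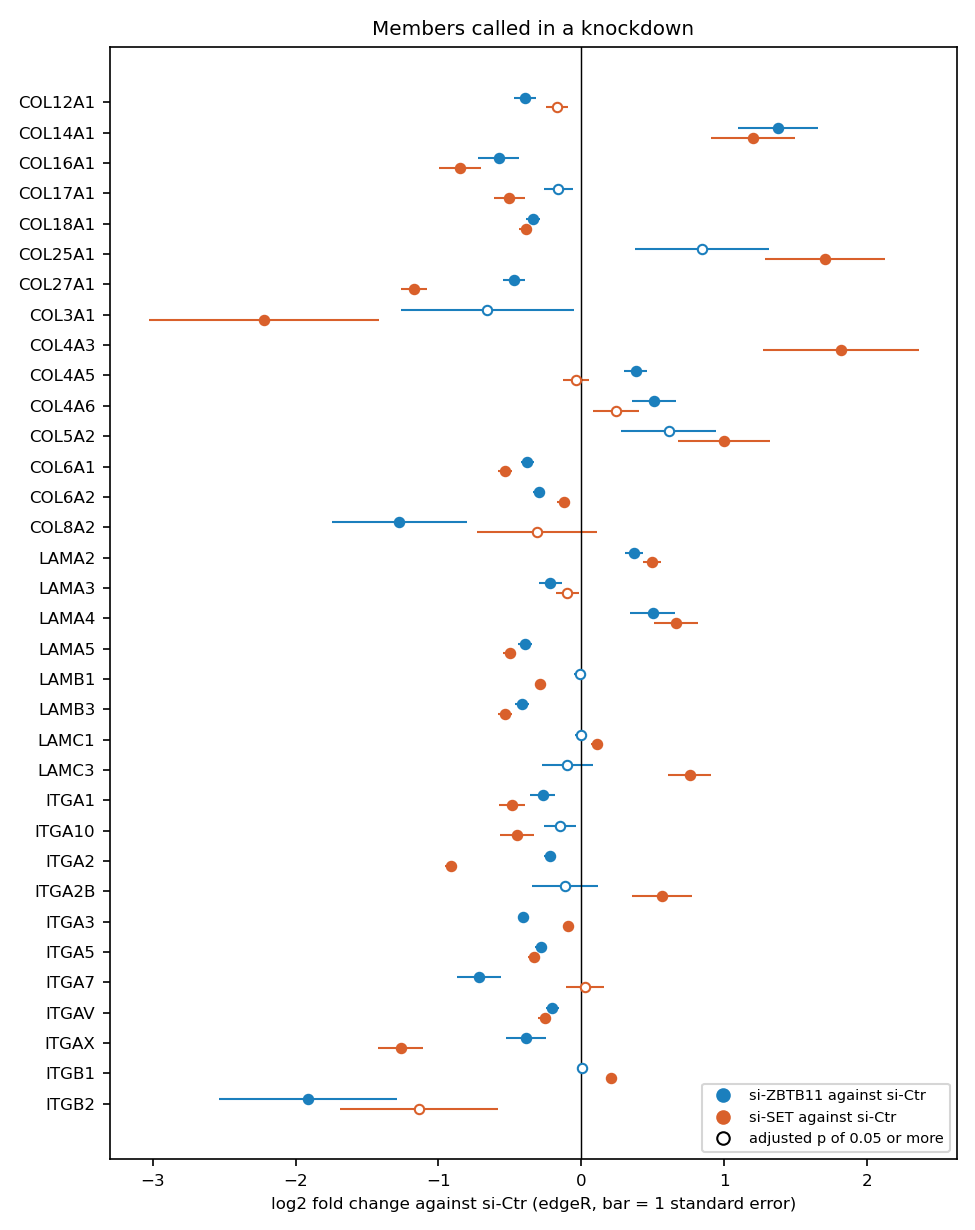
Log2 fold change against si-Ctr with 1 standard error (edgeR) for members called in at least 1 knockdown, ordered by family; filled points have an adjusted p under 0.05 and open points do not. COL4A3 has no si-ZBTB11 point because it was below the count filter there. ITGA2, COL27A1 and ITGAX lie farther left for si-SET, and ITGA3 and ITGA7 farther left for si-ZBTB11.

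Among the fibrillar collagens, which form the banded fibres of the matrix, COL27A1 fell in both knockdowns. COL27A1 (chromosome 9, 114155537 to 114312511, plus strand, hg38) had 782 and 863 counts in si-Ctr, 572 and 607 in si-ZBTB11 and 357 and 384 in si-SET. The 3 groups did not overlap, with si-SET lowest. Its log2 fold change was -0.47 ± 0.08 (adjusted p = 1.12e-06) upon ZBTB11 knockdown and -1.17 ± 0.09 (adjusted p = 4.31e-21) upon SET knockdown. COL5A2, a chain of the collagen that nucleates fibrils, had 28 and 26 counts in si-Ctr, 33 and 49 in si-ZBTB11 and 66 and 44 in si-SET, and rose upon SET knockdown by 1.00 ± 0.32 (adjusted p = 0.0128). Its partner COL5A1 had 4 to 17 counts and no call. COL3A1, the type III chain, was called lower upon SET knockdown from 14 and 10 counts to 0 and 5, at -2.22 ± 0.81. COL3A1 passed the count filter only through si-Ctr, so it could be tested only because it was high there. COL1A1 was at 0.32 ± 0.21 in each knockdown, COL11A1 at 0.07 and -0.04 and COL11A2 at -0.27 and -0.23, all without a call. The COL5A2 call was lost without si-SET replicate 1 (adjusted p = 0.262), si-Ctr replicate 1 (0.0684) or si-Ctr replicate 2 (0.0797), and that of COL3A1 without si-SET replicate 1 (0.372), si-Ctr replicate 1 (0.265) or si-Ctr replicate 2 (0.121).

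The network collagens build sheets, and the collagen IV chains are the scaffold of basement membranes. COL4A5 (chromosome X, 108439838 to 108697545, plus strand) had 552 and 529 counts in si-Ctr, 677 and 720 in si-ZBTB11 and 504 and 563 in si-SET. The si-ZBTB11 libraries lay above the other 4, and the si-SET libraries overlapped si-Ctr. COL4A5 rose upon ZBTB11 knockdown by 0.38 ± 0.08 (adjusted p = 0.000191) and was at -0.04 ± 0.09 upon SET knockdown. COL4A6, which shares its promoter stretch, had 132 and 138 counts in si-Ctr, 189 and 193 in si-ZBTB11 and 153 and 171 in si-SET, with log2 fold changes of 0.51 ± 0.15 (adjusted p = 0.00949) and 0.24 ± 0.16 (adjusted p = 0.275). COL4A3 had 9 and 4 counts in si-Ctr, 14 and 9 in si-ZBTB11 and 19 and 28 in si-SET. It was tested upon SET knockdown only through the si-SET libraries and was called at 1.82 ± 0.54 there, while COL4A4 across the shared stretch had 19 to 36 counts and was at 0.23 ± 0.40 and 0.59 ± 0.39 without a call. COL4A1 and COL4A2, the chains of the most widespread collagen IV trimer, had at most 2 and 5 counts in any library. COL8A2, a short-chain collagen, went from 23 and 26 counts in si-Ctr to 10 and 10 in si-ZBTB11, a call at -1.27 ± 0.47 that it could reach only through si-Ctr, and had 17 and 23 in si-SET. The COL4A6 call was lost without si-Ctr replicate 1 (adjusted p = 0.0965) or si-ZBTB11 replicate 2 (0.0603), the COL4A3 call without si-Ctr replicate 2 (0.174) or si-SET replicate 2 (0.154), and the COL8A2 call without any 1 of the 4 libraries (up to 0.27).

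Collagen VI forms beaded filaments around cells. COL6A1 (chromosome 21, 45981770 to 46005050, plus strand) had 3486 and 3519 counts in si-Ctr, 2626 and 2725 in si-ZBTB11 and 2349 and 2558 in si-SET. Both knockdowns lay below si-Ctr, at -0.38 ± 0.05 (adjusted p = 5.17e-11) and -0.53 ± 0.05 (adjusted p = 2.25e-17). COL6A2, its neighbour on the same chromosome at 46098112 to 46132848, had 4291 and 4502 counts in si-Ctr, 3564 and 3556 in si-ZBTB11 and 3983 and 4200 in si-SET. COL6A2 fell by 0.30 upon ZBTB11 knockdown (SE 0.04, adjusted p = 3.5e-08). Upon SET knockdown its libraries overlapped si-Ctr after normalization, and the call at -0.12 ± 0.04 was lost without si-Ctr replicate 2 (adjusted p = 0.566) or si-SET replicate 1 (0.405).

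The FACIT collagens attach to the surface of fibrils. COL14A1, one of several matrix genes that the study names, rose in both knockdowns from a low level: it lies on chromosome 8 from 120059780 to 120373573 on the plus strand and had 29 and 30 counts in si-Ctr, 86 and 67 in si-ZBTB11 and 67 and 71 in si-SET. Both knockdowns lay above si-Ctr, with log2 fold changes of 1.38 ± 0.28 (adjusted p = 5.75e-05) and 1.20 ± 0.30 (adjusted p = 0.000903). COL16A1 went the other way, from 231 and 235 counts to 160 and 150 in si-ZBTB11 and 130 and 132 in si-SET, at -0.58 ± 0.14 (adjusted p = 0.00122) and -0.85 ± 0.15 (adjusted p = 1.57e-06). COL12A1 had 803 and 776 counts in si-Ctr, 623 and 572 in si-ZBTB11 and 755 and 670 in si-SET, and fell upon ZBTB11 knockdown by 0.39 (SE 0.08, adjusted p = 3.97e-05). COL9A3 and COL21A1, with 8 to 37 counts, had no call.

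Of the other collagens, COL18A1, a basement membrane proteoglycan and the source of endostatin, had 2869 and 2912 counts in si-Ctr, 2308 and 2231 in si-ZBTB11 and 2236 and 2238 in si-SET. It fell by 0.34 and by 0.39, each with an SE of 0.05. COL18A1 shares 18.47% of its exon bases with SLC19A1 on the opposite strand, and as the strand setting of the counting is not given, the reads of these genes may be mixed. SLC19A1 itself was at -0.19 and -0.13 without a call. COL17A1, the transmembrane collagen of hemidesmosomes, had 414 and 409 counts in si-Ctr, 388 and 343 in si-ZBTB11 and 321 and 268 in si-SET, and fell upon SET knockdown, at -0.50 ± 0.11 (adjusted p = 0.000107). Upon ZBTB11 knockdown it was at -0.16 ± 0.10 without a call. COL25A1, another transmembrane collagen, had 15 and 9 counts in si-Ctr, 26 and 17 in si-ZBTB11 and 42 and 38 in si-SET, with a call upon SET knockdown at 1.71 ± 0.42 (adjusted p = 0.00083) in a test that it entered only through si-SET. COL13A1, COL7A1 and COL26A1 had no call in either knockdown, with COL7A1, the anchoring fibril collagen, at 181 to 228 counts.

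Laminin alpha chains moved in opposite directions within each knockdown. LAMA5 (chromosome 20, 62307955 to 62367312, minus strand), the alpha chain of most adult epithelial basement membranes, had 3550 and 3745 counts in si-Ctr, 2630 and 2878 in si-ZBTB11 and 2550 and 2678 in si-SET. It fell to -0.40 ± 0.05 (adjusted p = 3.04e-11) and -0.50 ± 0.05 (adjusted p = 3.19e-16). LAMA2 (chromosome 6, 128883138 to 129516566, plus strand), the alpha chain known from muscle, had 999 and 912 counts in si-Ctr, 1165 and 1283 in si-ZBTB11 and 1311 and 1416 in si-SET, and rose by 0.37 ± 0.07 (adjusted p = 3.75e-06) and 0.49 ± 0.07 (adjusted p = 8.49e-10). LAMA4, known from vessels and mesenchyme, had 147 and 112, 174 and 189, and 200 and 215 counts in the same order and rose by 0.50 ± 0.16 and 0.66 ± 0.15. The 4 endothelial markers summed to 3.08 to 3.64 CPM in si-Ctr, 1.74 to 2.15 in si-ZBTB11 and 2.99 to 3.46 in si-SET, and KDR among them was called lower upon ZBTB11 knockdown at -0.96. The 6 fibroblast markers summed to 2.33 to 2.51 CPM in si-Ctr, 3.31 to 3.71 in si-ZBTB11 and 2.71 to 2.93 in si-SET, with LUM at 0. PDGFRA had 31 and 26 counts in si-Ctr, 48 and 47 in si-ZBTB11 and 29 and 34 in si-SET. PDGFRB had 11 and 11, 6 and 9, and 15 and 12 counts in the same order. Neither had a call, and DCN, FAP and THY1 had at most 4 counts. The part of the fibroblast markers in the rise of LAMA2 and LAMA4 was not tested. LAMA3 had 703 and 696, 595 and 600, and 634 and 692 counts and was called upon ZBTB11 knockdown at -0.22 ± 0.08, a call lost without any 1 of the 4 libraries (adjusted p up to 0.224). Without si-Ctr replicate 2 or si-ZBTB11 replicate 2, LAMA4 lost its call upon ZBTB11 knockdown (adjusted p = 0.238 and 0.126).

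Among the beta and gamma chains, LAMB3, a beta chain of the laminin of hemidesmosomes, had 2668 and 2716 counts in si-Ctr, 2039 and 1978 in si-ZBTB11 and 1989 and 1789 in si-SET. Both knockdowns lay below si-Ctr, at -0.41 ± 0.05 (adjusted p = 2.54e-11) and -0.53 ± 0.05 (adjusted p = 3.71e-16). LAMB1, a beta chain of the widely expressed laminins, had 6094 and 6119 counts in si-Ctr, 5962 and 6066 in si-ZBTB11 and 4988 and 5162 in si-SET, and fell upon SET knockdown by 0.29 (SE 0.04, adjusted p = 6.99e-09). LAMB2 had 1942 to 2097 counts and was at -0.03 and -0.04 with an SE of 0.05 each. LAMC1, the most widely used gamma chain, had 3879 to 4423 counts and was called higher upon SET knockdown at 0.11 ± 0.04. LAMC3 had 126 and 130 counts in si-Ctr, 133 and 105 in si-ZBTB11 and 238 and 202 in si-SET. The si-SET libraries stood above the other 4, a rise of 0.76 ± 0.15 (adjusted p = 2.7e-05). The LAMC1 call upon SET knockdown was lost without si-Ctr replicate 1 (adjusted p = 0.126), si-Ctr replicate 2 (0.251) or si-SET replicate 2 (0.375).

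**Figure D3:**
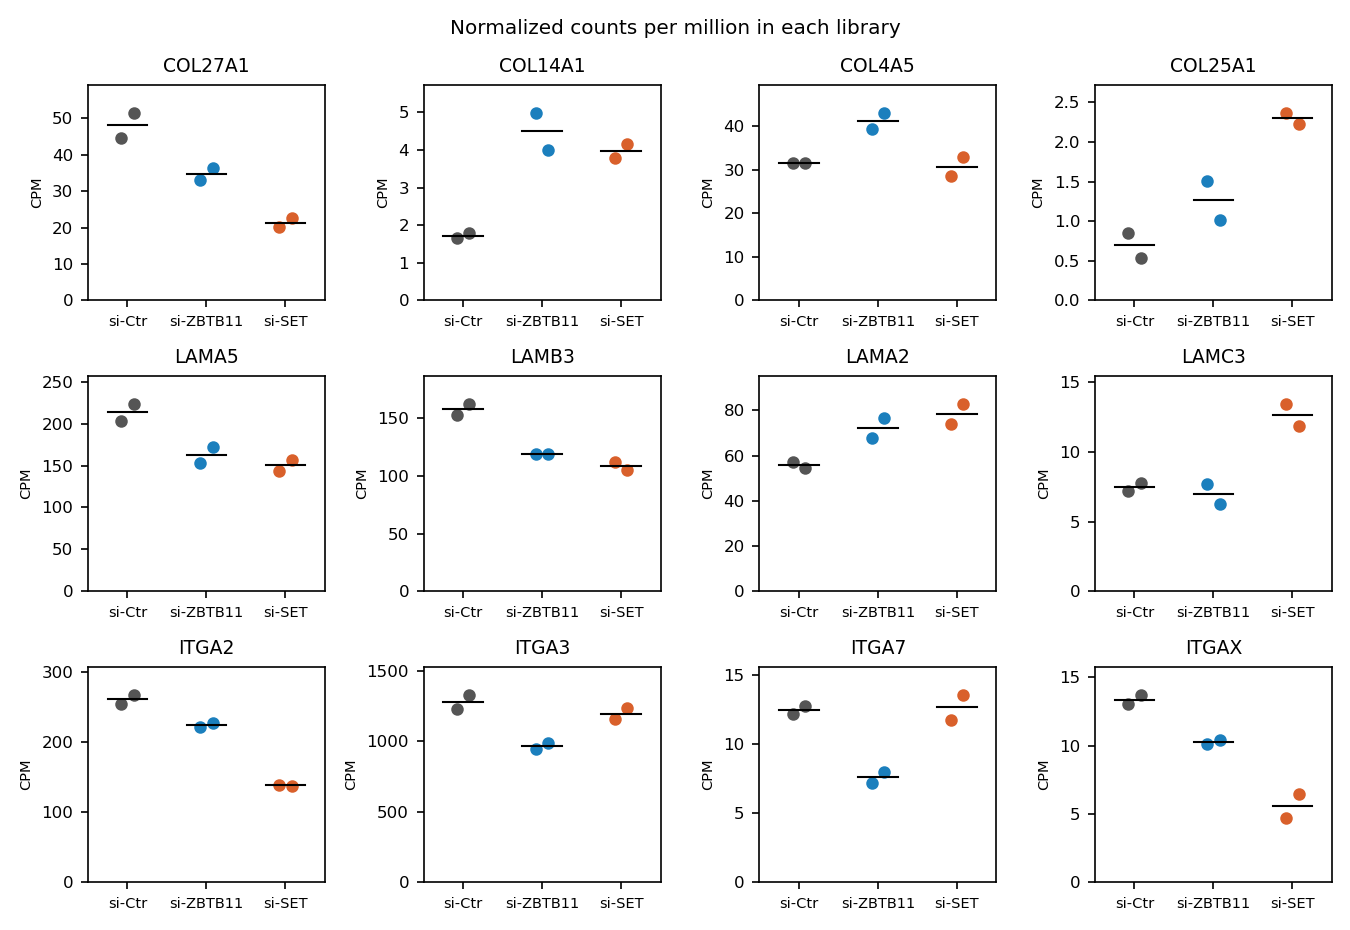
Normalized CPM in each library for 12 members; points are libraries, the line is the mean of the 2 libraries of a group, and each y axis starts at 0. COL14A1 and LAMA2 lie above si-Ctr in both knockdowns and LAMA5 and LAMB3 below it, while ITGA7 is low in si-ZBTB11 and LAMC3 is high in si-SET.

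The integrin alpha chains had no member called higher upon ZBTB11 knockdown and 7 of 15 tested called lower, and 1 higher and 7 lower upon SET knockdown, where 9.94% and 10.5% of all genes were called higher and lower upon ZBTB11 knockdown and 13.1% and 13.9% upon SET knockdown. Of the collagen receptors, ITGA2 (chromosome 5, 52989340 to 53094779, plus strand) had 4436 and 4472 counts in si-Ctr, 3813 and 3795 in si-ZBTB11 and 2463 and 2339 in si-SET. The 3 groups did not overlap, and the fall was 0.22 (SE 0.04, adjusted p = 2.68e-05) upon ZBTB11 knockdown against 0.91 (SE 0.04, adjusted p = 9.92e-35) upon SET knockdown. ITGA1 had 604 and 650, 504 and 528, and 445 and 465 counts and was called at -0.27 ± 0.09 and -0.48 ± 0.09. ITGA10 was called upon SET knockdown at -0.45 ± 0.12, from 329 and 346 counts to 218 and 283, and ITGA11, with 63 to 83 counts, had no call. Leaving out si-Ctr replicate 2 or si-ZBTB11 replicate 1 ended the ITGA1 call upon ZBTB11 knockdown (adjusted p = 0.29 and 0.17), and leaving out si-SET replicate 1 ended the ITGA10 call (adjusted p = 0.19).

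Of the laminin receptors, ITGA3 (chromosome 17, 50055968 to 50090481, plus strand) had 21526 and 22282 counts in si-Ctr, 16280 and 16549 in si-ZBTB11 and 20535 and 21081 in si-SET. ITGA3 fell upon ZBTB11 knockdown by 0.41 (SE 0.03, adjusted p = 1.58e-19). Upon SET knockdown its libraries overlapped si-Ctr after normalization, and the call at -0.09 ± 0.03 was lost without si-Ctr replicate 2 (adjusted p = 0.66) or si-SET replicate 1 (0.341). ITGA7 (chromosome 12, 55684568 to 55716404, minus strand), a laminin receptor best known from muscle, had 213 and 214 counts in si-Ctr, 124 and 134 in si-ZBTB11 and 208 and 232 in si-SET. Only the si-ZBTB11 libraries were low, at -0.72 ± 0.15 (adjusted p = 0.000125), with 0.02 ± 0.13 upon SET knockdown. ITGA6, the partner of ITGB4 in hemidesmosomes, had 5102 to 6100 counts and was at -0.10 ± 0.04 (adjusted p = 0.0729) and -0.02 ± 0.04, and ITGB4 had 736 to 926 counts and was at -0.04 ± 0.08 and 0.13 ± 0.08.

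The receptors for fibronectin and other ligands with the RGD motif include ITGA5 and ITGAV. ITGA5, the main fibronectin receptor chain, had 4224 and 4349 counts in si-Ctr, 3428 and 3571 in si-ZBTB11 and 3567 and 3353 in si-SET, and fell by 0.28 (SE 0.04, adjusted p = 1.48e-07) and by 0.33 (SE 0.04, adjusted p = 6.3e-10). ITGAV, the chain of vitronectin receptors, had 3534 and 3768, 3139 and 3167, and 3215 and 2987 counts and fell by 0.20 and by 0.26, each with an SE of 0.05. The former of these calls was lost without si-Ctr replicate 2 (log2 fold change -0.12, adjusted p = 0.16). ITGA2B, the platelet chain, had 63 and 82, 60 and 73, and 117 and 101 counts and was called higher upon SET knockdown at 0.56 ± 0.21, without a call when si-Ctr replicate 1 (adjusted p = 0.355), si-SET replicate 1 (0.201) or si-SET replicate 2 (0.0526) was left out. Among the leukocyte chains, ITGAX (chromosome 16, 31355134 to 31382999, plus strand) had 228 and 230 counts in si-Ctr, 174 and 174 in si-ZBTB11 and 83 and 110 in si-SET. The fall upon SET knockdown was 1.27 (SE 0.16, adjusted p = 1.7e-10), and upon ZBTB11 knockdown it was 0.39 (SE 0.14, adjusted p = 0.0378), a call lost without any 1 of the 4 libraries (adjusted p up to 0.184). The leukocyte markers listed summed to 1.09 to 1.79 CPM in si-Ctr and 1.52 to 1.76 in si-SET. ITGA4, ITGA9, ITGAE and ITGAM had no call, and ITGA4 shares 26.4% of its exon bases with CERKL on the opposite strand.

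Of the 7 beta chains tested, ITGB2 was called lower upon ZBTB11 knockdown and ITGB1 higher upon SET knockdown. ITGB1 (chromosome 10, 32887273 to 33005792, minus strand) had 16885 and 15765 counts in si-Ctr, 16613 and 15886 in si-ZBTB11 and 19579 and 18583 in si-SET. Upon SET knockdown it rose by 0.20 ± 0.03 (adjusted p = 5.82e-07), while its alpha partners ITGA2, ITGA1 and ITGA5 fell in the same libraries. The laminin receptor chains ITGA3, ITGA6 and ITGA7 moved little there, at -0.09, -0.02 and 0.02. Upon ZBTB11 knockdown ITGB1 was at 0.00 ± 0.03, while ITGA3, ITGA5 and ITGA2 fell. ITGB2, the leukocyte beta chain, went from 23 and 12 counts in si-Ctr to 3 and 6 in si-ZBTB11 and 9 and 7 in si-SET, with a call upon ZBTB11 knockdown at -1.92 ± 0.62 that it entered only through si-Ctr and that was lost without si-Ctr replicate 1 (adjusted p = 0.393) or si-ZBTB11 replicate 1 (0.213). ITGB5, the partner of ITGAV with the most counts after ITGB1, had 2957 to 3150 counts and was at 0.00 and -0.05 with an SE of 0.05 each. ITGB3, ITGB6 and ITGB8 had no call, and ITGB7 was below the count filter.

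The members were also read beside 2 lists of genes that work with them. Of the 32 genes of the integrin adhesion complex, all tested, 2 were higher and 10 lower upon ZBTB11 knockdown (median log2 fold change -0.09), and 2 were higher and 13 lower upon SET knockdown (median -0.13). The lower genes were 31.2% and 40.6% of the list, against 10.5% and 13.9% of all genes, and the higher genes 6.25% in each, against 9.94% and 13.1%. The actin crosslinker FLNA, with 31805 and 30492 counts in si-Ctr, had 24335 and 24568 in si-ZBTB11 and 28834 and 27579 in si-SET. The adaptors BCAR1 and PXN fell by 0.32 and 0.20 upon ZBTB11 knockdown and by 0.37 and 0.16 upon SET knockdown. SHARPIN, an inhibitor of integrin activation, had 993 and 965 counts in si-Ctr, 563 and 635 in si-ZBTB11 and 835 and 863 in si-SET, at -0.70 ± 0.08 and -0.23 ± 0.07. PARVA, which links integrins to actin through ILK, was lower upon SET knockdown at -0.63 ± 0.07, and PTK2B, a kinase related to focal adhesion kinase, was higher there at 0.77 ± 0.28 from 44 and 34 to 62 and 73 counts.

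Of the 28 other matrix ligands, linkers and receptors, 26 were tested, 3 were higher and 8 lower in each knockdown, with medians of -0.12 upon ZBTB11 knockdown and -0.03 upon SET knockdown. The lower genes were 30.8% of those tested and the higher genes 11.5%, beside the same shares of all genes as above. TNC, a glycoprotein of remodelled matrix, had 1262 and 1353 counts in si-Ctr, 1803 and 1837 in si-ZBTB11 and 1079 and 1025 in si-SET, and so lay above si-Ctr in one knockdown (0.49 ± 0.06) and below it in the other (-0.34 ± 0.06). SDC4, a heparan sulfate coreceptor of integrins, rose in both, by 0.59 ± 0.06 and 0.52 ± 0.06. CD47, the thrombospondin receptor, fell upon SET knockdown by 0.53 (SE 0.05). NID1, which joins the laminin and collagen IV networks, was at -0.48 ± 0.08 upon ZBTB11 knockdown and -0.35 ± 0.08 upon SET knockdown, and the fibulins FBLN1 and FBLN2 were called lower in both.

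Setting the knockdowns against each other asks which members differed between siRNA against ZBTB11 and siRNA against SET. The knockdowns were unequal in depth, with ZBTB11 at 55.0% of si-Ctr in si-ZBTB11 and SET at 8.97% in si-SET. ZBTB11 also stood at 76.2% of si-Ctr in si-SET. The part of knockdown depth in the differences below was not tested. Of 54 members tested, 7 were higher in si-ZBTB11 than in si-SET and 7 were lower, where 9.61% of all 13549 genes tested were called higher and 8.58% lower. No member passed the study's criteria, which 1.36% of all genes did, and the median was 0.03 against 0.00 over all genes, with -0.03 without si-SET replicate 1. Higher in si-ZBTB11 were ITGAX at 0.88 ± 0.17 (adjusted p = 0.000329), COL27A1 at 0.70 ± 0.09 (adjusted p = 1.17e-06), ITGA2 at 0.69 ± 0.05 (adjusted p = 5.89e-13), COL4A5 at 0.42 ± 0.09, COL17A1 at 0.34 ± 0.11, LAMB1 at 0.27 ± 0.04 and COL6A1 at 0.15 ± 0.05. Of these, COL27A1, ITGA2, ITGAX and COL6A1 were below si-Ctr in both knockdowns and lower in si-SET. Lower in si-ZBTB11 were LAMC3 at -0.86 ± 0.15 (adjusted p = 0.000103), ITGA7 at -0.74 ± 0.15 (adjusted p = 0.000442), ITGA2B at -0.68 ± 0.21, ITGA3 at -0.31 ± 0.04 (adjusted p = 3.39e-07), COL12A1 at -0.22 ± 0.08, ITGB1 at -0.20 ± 0.04 (adjusted p = 0.000126) and COL6A2 at -0.17 ± 0.05. The collagen VI chains thus differed in opposite directions, COL6A1 being lower in si-SET and COL6A2 in si-ZBTB11. COL14A1, LAMA2, LAMA4, LAMA5 and LAMB3 were at 0.18 ± 0.22, -0.13 ± 0.07, -0.16 ± 0.14, 0.10 ± 0.05 and 0.12 ± 0.05 in this comparison, all without a call. Leaving out 1 library ended the calls of COL6A1 (si-SET replicate 1, adjusted p = 0.542, or si-ZBTB11 replicate 2, 0.291), COL6A2 (si-SET replicate 2, 0.234, or si-ZBTB11 replicate 1, 0.0671), COL17A1 (si-SET replicate 2, 0.263, or si-ZBTB11 replicate 1, 0.19), ITGA2B (si-SET replicate 1, 0.115, or si-ZBTB11 replicate 1, 0.178) and COL12A1 (si-SET replicate 1, 0.33, si-ZBTB11 replicate 1, 0.0707, or si-ZBTB11 replicate 2, 0.271).

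**Figure D4:**
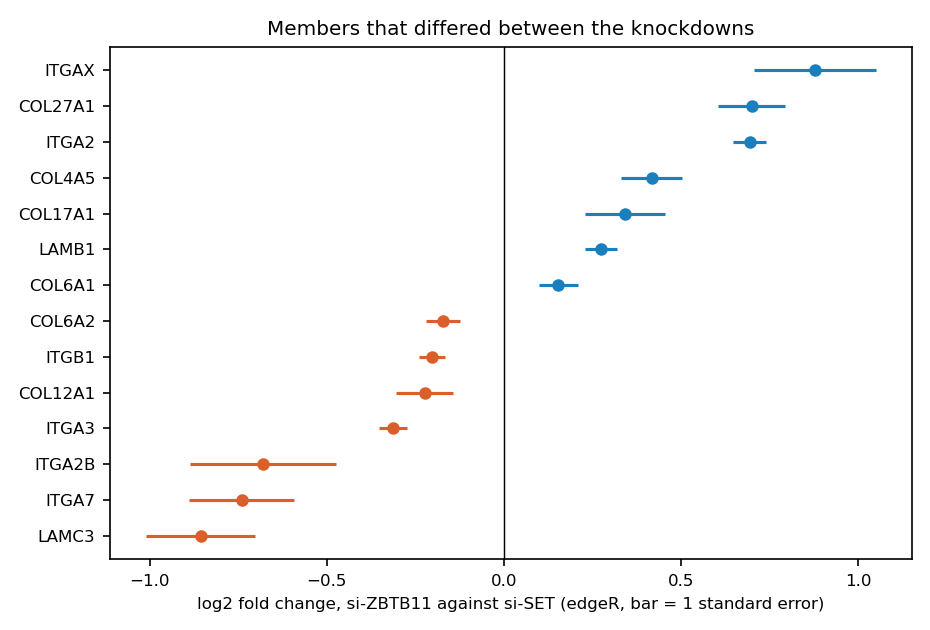
Log2 fold change of si-ZBTB11 against si-SET with 1 standard error (edgeR) for the 14 members with an adjusted p under 0.05; positive values are higher in si-ZBTB11. ITGAX, COL27A1 and ITGA2 are farthest right and LAMC3, ITGA7 and ITGA2B farthest left.

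Members called lower had a higher median GC content than members called higher. The median GC content of the longest transcript was 60.3% for the 18 members lower upon ZBTB11 knockdown, 46.8% for the 5 higher and 51.8% for the 33 without a call. Over all genes these medians were 51.2%, 47.1% and 47.6%. Upon SET knockdown they were 56.2% for the members lower, 47.6% for those higher and 54.2% for those without a call, against 51.6%, 46.6% and 47.6% over all genes. The part of base composition in these calls was not tested. LAMA5 at 66.4% GC and COL18A1 at 67.2% fell in both knockdowns, as did ITGA2 at 40.1% and ITGAV at 33.5%. COL14A1 at 44.7% rose in both, and LAMC3 at 62.5% rose upon SET knockdown.

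**Figure D5:**
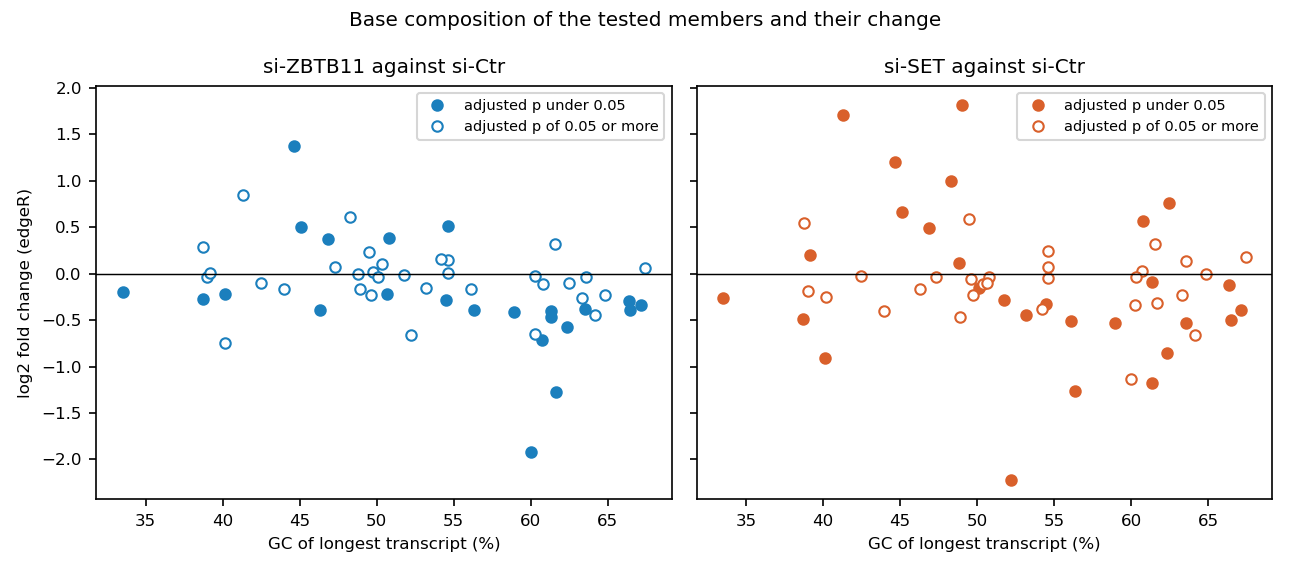
Log2 fold change against si-Ctr (y axis, edgeR) by GC content of the longest GENCODE transcript (x axis, percent) for the members tested, with si-ZBTB11 on the left and si-SET on the right; filled points have an adjusted p under 0.05. The 5 members higher in si-ZBTB11 have a GC content of 44.7% to 54.6%, and those lower range from 33.5% to 67.2%.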

How the data were processed

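RNA of 6 H1299 libraries (si-Ctr, si-ZBTB11 and si-SET, 2 biological replicates each, grouped by the sample labels) was sequenced after preparation with an NEBNext Ultra kit. The authors aligned reads to hg38 (the submitters' notes name HISAT2 2.0.5), counted them per gene (featureCounts 1.5.0-p3) and deposited raw counts per gene symbol, without normalization. Neither the strand setting nor the annotation of that counting is given in the sources used here. The study tested with DESeq2.

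From these counts, each pair of groups was fitted with edgeR 4.0.16 in R 4.3.3 (TMM, default filter on low counts, quasi-likelihood test, two-sided, Benjamini-Hochberg over all genes tested), with only the groups compared in the fit. SEs came from the fold change and the F statistic. The scripts were tested on simulated data. An exact permutation test of 2 against 2 libraries cannot go below p = 0.333. Exons, positions and GC content came from GENCODE version 44, matched by symbol for 18802 genes, and promoter windows from RefSeq. Depth was 16653115 to 17694522 counts per library. Replicates differed by more than sampling noise (chi-square per degree of freedom 2.34 to 2.71).

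The members, lists and naming rule were chosen with earlier results of these data known. Named were the members called with libraries of the groups not overlapping (up to 12 each way per comparison), those highest per length in each family, their assembly partners, COL14A1, members past the study's criteria, list genes called beyond 0.5 on the log2 scale and the siRNA targets. Other members and list genes were named after their values were seen. Alternatives were DESeq2 1.42.0, its size factors in edgeR, library size only, filters of 10 or more counts in every library or of 1 or more in any, a fit of all 6 libraries, edgeR's newer quasi-likelihood method, a replicate block and each library left out in turn. Protein sequences were not used here, and a single-gene result that the naming rule would include is not reported here.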

Additional observations from a re-analysis of the deposited data

How the results depend on the processing

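No call of a member changed direction under any alternative run, but several were lost. With DESeq2, members higher upon ZBTB11 knockdown went from 5 of 56 to 3 of 81, and members lower from 18 to 13. COL8A2 and ITGB2 among the 18 had no adjusted p with DESeq2. The DESeq2 counts of members and shares of all genes given here include genes without an adjusted p, which could not be called. The shares of all genes higher and lower went from 9.94% and 10.5% to 3.69% and 4.0%. Members higher upon SET knockdown went from 10 of 57 to 6 of 81 with DESeq2, and members lower from 18 to 13. COL4A3 among those higher and COL3A1 among those lower upon SET knockdown had no adjusted p with DESeq2. The shares of all genes there went from 13.1% and 13.9% to 4.64% and 5.84%. Members past the study's criteria upon SET knockdown went from 8 to 3 when each library had to hold 10 or more counts and were 5 to 7 with 1 library left out, being 5 without si-SET replicate 1. In the direct comparison they went from 0 to 1 with library size only and to 1 with at least 1 count, and were 1 to 2 with 1 library left out. Members lower in si-ZBTB11 than in si-SET were 4 to 8 with 1 library left out, against 7, being 4 without si-ZBTB11 replicate 1. The share of all genes called lower in the direct comparison also fell in every fit with 1 library left out. Nothing about the members is therefore read from their counts in those fits. The stricter filter left 50 of the 82 members to test upon ZBTB11 knockdown, 49 upon SET knockdown and 50 in the direct comparison. The cause of the other shifts was not tested.

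With the replicate block, 5 members were higher and 19 lower upon ZBTB11 knockdown, 10 and 18 upon SET knockdown, and 8 and 8 in the direct comparison. The shares of all genes higher and lower were then 11.3% and 12% upon ZBTB11 knockdown and 14.8% and 15.4% upon SET knockdown. In the direct comparison they were 11.5% and 10.6%. Each of these shares lay above the one without the block. Libraries of the same number did not count as pairs, since the correlation of their deviations was 0.00916, 0.0554 and 0.0349. Of the members called, 15 of 23, 19 of 28 and 9 of 14 kept their call in every alternative that tested them. Among the calls absent with DESeq2 were COL4A6, ITGA1, ITGAX, LAMA3 and LAMA4 upon ZBTB11 knockdown, COL5A2, COL6A2, ITGA10, ITGA2B, ITGA3 and LAMC1 upon SET knockdown, and COL12A1, COL17A1, COL6A1 and ITGA2B in the direct comparison. Depth limits the 25 untested members, whose highest count was 13.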
